A study of Mus musculus with 6 samples.

Results

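The Wnt pathway from ligand release to the TCF/LEF factors was examined in mouse LSK cells as a list of 38 genes, picked by symbol among the 49671 gene identifiers of the count table. LSK cells are marrow cells that lack lineage markers and carry Sca-1 and Kit, a fraction in which blood stem cells and early multipotent progenitors are found. The shCxxc5 group consisted of 3 libraries from BALB/c marrow cells that had been enriched for stem and progenitor cells and infected with a retrovirus against Cxxc5. The shCtrl group consisted of 3 libraries from cells of the same strain and marrow preparation that carried a retrovirus with no mouse target. In both groups the infected cells were sorted as GFP-positive LSK cells and pooled from several animals, and RNA came from 20000 to 50000 cells per library. The labels give no age and only 1 hairpin name per group, and they do not say what a replicate number stands for. Libraries carry the numbers 2, 3 and 4 in each group, and values below follow that order.

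In canonical Wnt signalling, a ligand lipid-modified by Porcn and carried to the surface by Wls binds Frizzled and Lrp5 or Lrp6 at the cell surface, and Dishevelled proteins pass the signal on. Without a ligand, a destruction complex of Axin, Apc, Gsk3 and casein kinase 1 marks beta-catenin for removal. With a ligand, beta-catenin collects, enters the nucleus and switches TCF/LEF factors from repression by Groucho-type proteins to activation. In blood stem cells the pathway is known for effects that depend on its dose, and Tcf7 and Lef1 are known from lymphoid development. Cxxc5 encodes a zinc finger protein reported to bind Dishevelled and dampen the pathway.

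Library totals were 27754019, 22959351 and 16558791 counts in shCxxc5 libraries and 23285446, 22554934 and 15002414 counts in shCtrl libraries. Cxxc5 itself, as the check of the hairpin, had 6.74, 17.4 and 17.9 CPM in shCxxc5 libraries, against 82.2, 59.9 and 57.9 CPM in shCtrl libraries. With a prior count of 2 added before the ratio, the shCxxc5 value was 8.30%, 29.2% and 31.1% of the shCtrl value of the same number. In both groups the library numbered 2 was unlike the other pair. Ly6a, which encodes Sca-1 and defines the sort, was 21.4-fold lower in shCxxc5 library 2 than in shCxxc5 libraries 3 and 4, and 17.1-fold lower in shCtrl library 2 than in shCtrl libraries 3 and 4. Kit was between 82.4 and 110.4 CPM (read counts scaled to a common library size with TMM) in the 6 libraries. The summed level of 10 megakaryocyte markers was 1617, 304 and 297 CPM in shCxxc5 libraries, against 6826, 481 and 479 CPM in shCtrl libraries, and that of 10 myeloid markers was 5860.4, 1293 and 1319.6 CPM in shCxxc5 libraries, against 848, 1129 and 1152 CPM in shCtrl libraries. For this reason each hairpin comparison is given over all 6 libraries and over the 4 libraries numbered 3 and 4. Each p-value rests on the spread among these pooled libraries alone, and that spread may be technical. In such bulk RNA, fewer cells of a type and less RNA per cell cannot be told apart.

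Promoter windows are shown for the 3 genes that passed the test in replicates 3 and 4 and for Tcf7, which differed most between the replicate numbers. Each window runs from 250 bases before to 50 after the annotated start, 5′ to 3′ on the gene's strand, from RefSeq on GRCm38.p6, with every CG dinucleotide in capitals because the CXXC zinc finger is known to bind unmethylated CG. The Ctnnb1 window is at chr9:120933150-120933449, plus strand, the first of 2 listed for the gene. The Wls window is at chr3:159839400-159839699, plus strand. The Nlk window is at chr11:78697376-78697675, minus strand. The Tcf7 window is at chr11:52282965-52283264, minus strand, also the first of 2. From the ATG in ccatgcCGcag onward, this Tcf7 window reads as an open frame to its end. Much of it may thus be coding sequence, and its CG count may not be that of a promoter.
Ctnnb1: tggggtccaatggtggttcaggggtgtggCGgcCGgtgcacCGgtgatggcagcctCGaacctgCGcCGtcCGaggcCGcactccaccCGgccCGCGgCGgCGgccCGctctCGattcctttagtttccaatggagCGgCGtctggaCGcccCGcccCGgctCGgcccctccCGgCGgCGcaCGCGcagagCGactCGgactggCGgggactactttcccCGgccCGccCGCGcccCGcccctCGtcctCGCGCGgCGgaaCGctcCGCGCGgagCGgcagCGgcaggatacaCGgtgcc
Wls: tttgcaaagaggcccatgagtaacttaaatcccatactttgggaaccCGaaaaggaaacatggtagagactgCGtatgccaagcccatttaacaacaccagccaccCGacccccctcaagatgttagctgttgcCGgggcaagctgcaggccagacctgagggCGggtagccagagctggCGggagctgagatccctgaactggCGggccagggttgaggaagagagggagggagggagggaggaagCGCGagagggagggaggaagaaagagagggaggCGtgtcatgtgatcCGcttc
Nlk: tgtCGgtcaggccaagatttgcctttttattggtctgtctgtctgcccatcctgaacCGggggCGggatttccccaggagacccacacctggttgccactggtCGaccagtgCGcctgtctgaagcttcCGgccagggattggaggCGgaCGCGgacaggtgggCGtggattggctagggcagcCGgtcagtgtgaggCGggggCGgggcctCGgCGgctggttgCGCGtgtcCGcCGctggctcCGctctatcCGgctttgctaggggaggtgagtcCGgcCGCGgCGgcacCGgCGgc
Tcf7: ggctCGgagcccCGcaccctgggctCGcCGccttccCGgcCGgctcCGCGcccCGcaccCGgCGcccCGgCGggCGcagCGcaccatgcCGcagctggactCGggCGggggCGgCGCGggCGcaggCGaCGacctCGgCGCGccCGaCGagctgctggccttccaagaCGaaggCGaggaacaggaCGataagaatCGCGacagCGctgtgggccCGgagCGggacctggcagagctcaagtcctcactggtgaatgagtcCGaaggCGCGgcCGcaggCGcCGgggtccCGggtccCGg
These windows hold 46 CG dinucleotides for Ctnnb1, 11 for Wls, 27 for Nlk and 45 for Tcf7. Windows were found for 26 of the 38 genes, and the first listed window of each was counted. Their median was 27.5 CG dinucleotides, with a range from 3 in Ctbp2 to 46, against a median of 7 in all 27025 listed promoters. At least 10 CG dinucleotides were present in 25 of these 26 windows (96.2%), against 43.9% of all promoters. All promoters here are those of every listed gene, expressed or not, while all 38 genes were expressed enough to be tested. The sets were not matched for expression, so a high CG count cannot be called particular to the Wnt genes. Further windows are listed for some of these genes, and they ranged from 5 in Lef1 to 54 in Csnk1e. The TCF/LEF core letters CTTTGAA or CTTTGAT, read on both strands, were present in 1 of the 26 first windows (3.85%), that of Gsk3a, against 8.77% of all promoters. A count of letters in these windows says nothing of binding or methylation, which were not measured.

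Most of the 38 genes were present as RNA in these cells: 34 were above 1 CPM in every library, 29 averaged 10 CPM or more and 11 averaged 100 CPM or more, and all 38 passed the filter on low counts. Per kilobase of exon, Ctnnb1, which encodes beta-catenin, stood highest with an average of 169 CPM per kilobase over the 6 libraries (range 149 to 188). It was followed by the co-repressor gene Ctbp1 at 63.8 and the casein kinase gene Csnk1a1 at 62.0 CPM per kilobase, whose ranges of 59.7 to 78.0 and 55.9 to 66.1 overlapped. With the length of the longest transcript in place of all exons, Csnk1a1 came before Ctbp1, at 159 and 79.4 CPM per kilobase. The lowest of the 38 was Lef1, at 0.0877 CPM per kilobase. The next lowest was Tcf7l2, another TCF/LEF gene.

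**Figure D1:**
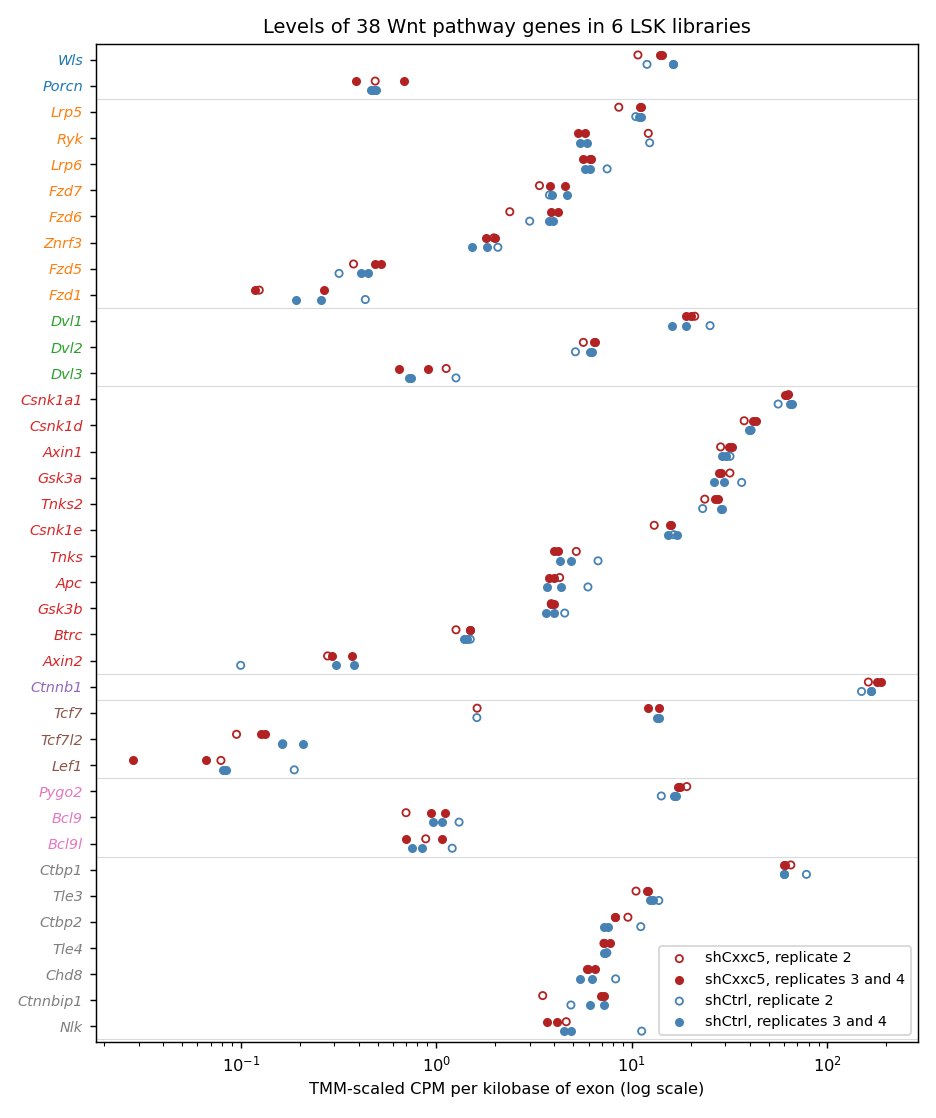
The x axis gives the level of each of the 38 genes in CPM per kilobase of exon on a log scale, and the y axis lists the genes by role. Red points are shCxxc5 libraries and blue points shCtrl libraries, with open points for replicate 2, and Tcf7 shows the widest gap between open and filled points in both groups.

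Most gene families were carried by 1 member on the per-kilobase scale. Dvl1 made up 73.8 ± 1.56% of the Dishevelled total in shCxxc5 libraries and 74.3 ± 4.93% in shCtrl libraries (SD, n = 3 each). Axin1 made up 99.0 ± 0.144% of the Axin total in shCxxc5 libraries and 99.1 ± 0.490% in shCtrl libraries. Gsk3a made up 88.3 ± 0.826% and 88.3 ± 1.27% of the Gsk3 total in shCxxc5 and shCtrl libraries. Lrp5 and Lrp6 were closer to each other, with Lrp5 at 63.0 ± 4.19% of their sum in shCxxc5 libraries and 62.7 ± 3.81% in shCtrl libraries. Among the 4 Frizzled genes of the list, Fzd7 and Fzd6 carried 49.3 ± 4.84% and 42.8 ± 5.19% in shCxxc5 libraries, against 49.1 ± 3.21% and 42.6 ± 3.33% in shCtrl libraries. For each share named here the means of the groups differed by less than the SD of at least 1 group. Some smaller shares differed by more than both SDs, such as that of Fzd5, at 5.79 ± 0.416% of the Frizzled total in shCxxc5 libraries and 4.67 ± 0.508% in shCtrl libraries. Tle3 likewise made up 61.0 ± 1.63% of the sum of Tle3 and Tle4 in shCxxc5 libraries and 63.9 ± 0.987% in shCtrl libraries, and no share was tested.

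The comparison of shCxxc5 with shCtrl asks which transcripts differ with the Cxxc5 hairpin. Over all 6 libraries none of the 38 genes passed the threshold of 0.05 on the adjusted p (edgeR's quasi-likelihood test with Benjamini-Hochberg adjustment over 14637 genes), beside 0% of all genes tested, and none of the 38 had an unadjusted p under 0.05, beside 575 of all genes. DESeq2 on the same libraries called 19 genes, and 147 with the replicate number as a block, but again none of the 38. The median log2 fold change of the 38 was -0.053, beside -0.022 for all genes tested, and their fold changes lay between -0.995 for Lef1 and 0.26 for Axin2.

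In the 4 libraries numbered 3 and 4, Ctnnb1 rose slightly while Wls and Nlk fell. These 3 of 38 genes (7.89%) passed the adjusted threshold, beside 20% of the 14193 genes tested, with 1 of 38 higher beside 11% and 2 of 38 lower beside 9%. An unadjusted p under 0.05 was reached by 10 of the 38, beside 4526 of the 14193. Their median log2 fold change was 0.025, beside -0.0030 for all genes tested. Fitting the replicate number as a block in these 4 libraries raised the count to 8 of the 38 (Axin1, Csnk1a1, Ctbp2, Ctnnb1, Dvl1, Nlk, Tnks and Wls), beside 23.3% of all genes tested. The count was 1 without shCxxc5 library 3, which kept Wls alone. In the same libraries the summed megakaryocyte markers were lower in both shCxxc5 libraries than in either shCtrl library, with 5 of 8 tested markers past the threshold. Of the other marker lists, 3 of 8 mast cell and basophil markers passed higher and 4 lower, 3 of 10 myeloid markers passed higher and 2 lower, and 2 of 7 tested erythroid markers passed lower. Of 8 markers of the LSK sort 2 passed higher and 2 lower, and of 6 tested stromal markers 2 passed lower. The part of these markers in the results was not tested.

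Within the replicate numbers, the log2 ratio of shCxxc5 over shCtrl had 1 sign in all 3 pairs for 12 of the 38 genes. It was above 0 throughout for Fzd5, Dvl2, Ctnnb1 and Pygo2 (10.5%, beside 19.0% of all genes) and below 0 throughout for Wls, Fzd7, Ryk, Tnks, Lef1, Tcf7l2, Tle3 and Nlk (21.1%, beside 22.4% of all genes). The groups did not overlap at all for Pygo2, which was higher, and for Lef1, Tcf7l2 and Tle3, which were lower (10.5%, beside 13.1% of all genes). The median ratio of the 38 genes was -0.22, 0.014 and 0.0070 in pairs 2, 3 and 4, beside -0.038, -0.0086 and -0.0047 for all genes. In pair 2, 29 of the 38 genes were lower with shCxxc5, and in pairs 3 and 4 the numbers lower were 18 and 19. Of the 14637 genes tested, 7816, 7702 and 7431 were lower in pairs 2, 3 and 4. The shift toward lower values was thus seen in the pair that stood apart.

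**Figure D2:**
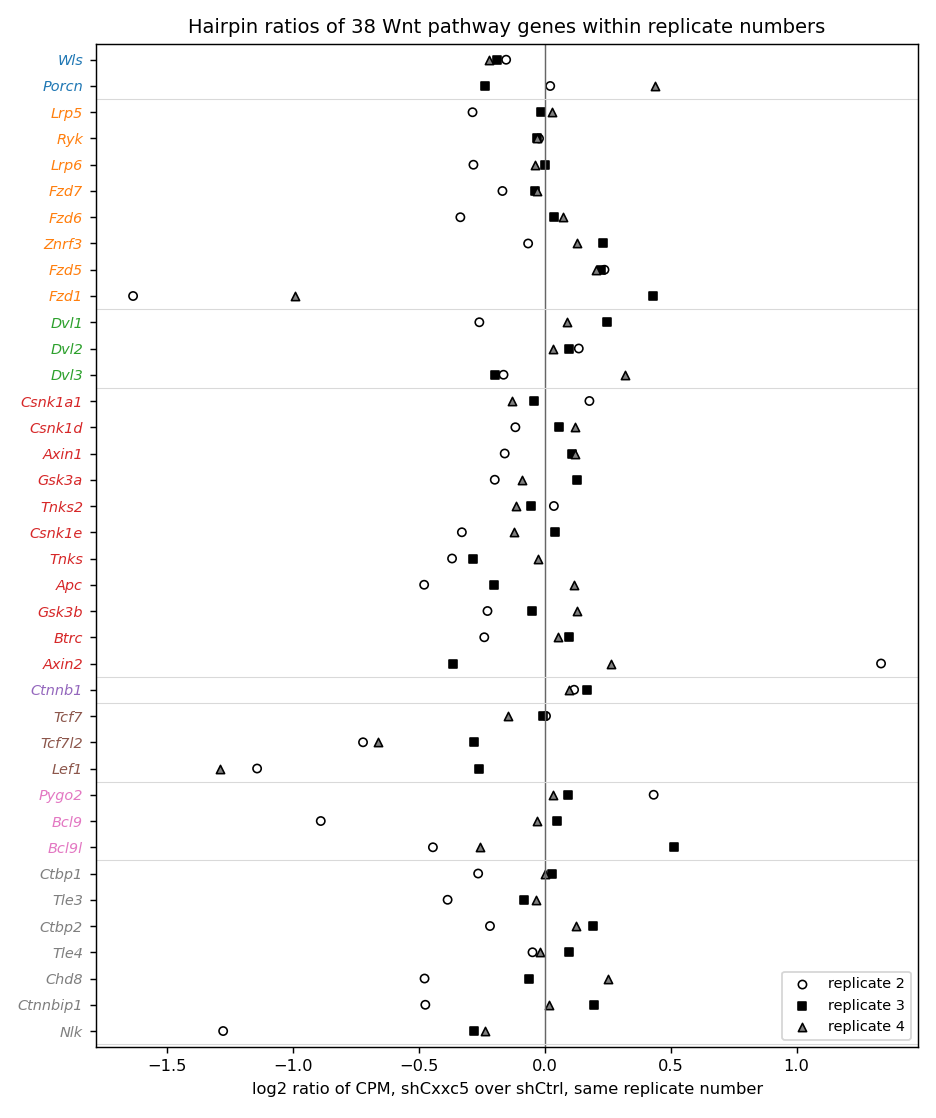
The x axis gives the log2 ratio of CPM in shCxxc5 over shCtrl within each replicate number, and the y axis lists the 38 genes by role; circles, squares and triangles are pairs 2, 3 and 4. The open circles of pair 2 lie left of 0 for 29 genes, and squares and triangles gather near 0. Of all 14637 genes tested, 7816 were lower in pair 2.

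Wnt release is served by Wls, the carrier that takes lipid-bearing Wnt proteins to the cell surface, and Porcn, the enzyme that attaches the lipid. Wls had 94.3, 126 and 123 CPM in shCxxc5 libraries, against 105, 143 and 143 CPM in shCtrl libraries. The shCxxc5 library was the lower of each pair, with log2 ratios of -0.15, -0.19 and -0.22, and the groups did not overlap in replicates 3 and 4 but did over all 6. Wls fell by 0.20 on the log2 scale in replicates 3 and 4 (SE 0.042, edgeR adjusted p = 0.000896), and the call was kept without any 1 of the 4 libraries. Over all 6 libraries the means were 114 ± 17.2 CPM in shCxxc5 libraries and 130.4 ± 22.0 CPM in shCtrl libraries (SD, n = 3 each), and the log2 fold change was -0.19 (SE 0.17, edgeR adjusted p = 0.940). Porcn was low in both groups, with 1.46, 1.16 and 2.04 CPM in shCxxc5 libraries, against 1.44, 1.38 and 1.48 CPM in shCtrl libraries, and its groups overlapped.

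Among the receptors, none of the 8 passed the test between the hairpins in either fit. Lrp5, a co-receptor that partners Frizzled, had 83.4, 108 and 108 CPM in shCxxc5 libraries, against 102, 109 and 106 CPM in shCtrl libraries. Its average per kilobase of exon was the highest of the 8 receptor genes over the 6 libraries, but Ryk matched it on the length of the longest transcript (11.5 CPM per kilobase for each). The groups overlapped for Lrp5 in replicates 3 and 4. Ryk, a Wnt-binding receptor with an inactive kinase domain, had 55.0, 24.0 and 26.0 CPM in shCxxc5 libraries, against 55.9, 24.5 and 26.6 CPM in shCtrl libraries. Its ratios within the numbers were -0.023, -0.030 and -0.032, so the 2 groups were nearly equal in each pair although library 2 stood more than 2-fold above the others in both. Fzd1, the lowest Frizzled of the list, had 0.521, 1.11 and 0.494 CPM in shCxxc5 libraries, against 1.82, 0.803 and 1.08 CPM in shCtrl libraries, and the groups overlapped. The other Frizzled genes Fzd5, Fzd6 and Fzd7 averaged 2.95, 16.9 and 18.2 CPM, Lrp6 averaged 84.9 CPM, and Znrf3, a membrane ubiquitin ligase that removes Frizzled, averaged 14.7 CPM. Their log2 fold changes in replicates 3 and 4 lay between -0.036 for Fzd7 and 0.23 for Fzd5. Fzd5 shares 1233 exon bases with an antisense gene, and the strand setting of the counting is not given.

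Dishevelled proteins relay the signal from receptor to destruction complex, and they are the reported binding partners of Cxxc5. Dvl1 had 105, 94.5 and 100.2 CPM in shCxxc5 libraries, against 125, 79.7 and 94.2 CPM in shCtrl libraries. The shCxxc5 library was the higher in pairs 3 and 4 and the lower in pair 2, with log2 ratios of -0.26, 0.24 and 0.088. In replicates 3 and 4 the log2 fold change of Dvl1 was 0.18 (SE 0.062), and its edgeR adjusted p of 0.0526 missed the threshold. The call was made with the replicate block, under RLE scaling, with no filter or the CPM filter, without robust fitting and without shCtrl library 4. Dvl2 had 35.5, 40.9 and 40.2 CPM in shCxxc5 libraries, against 32.4, 38.3 and 39.4 CPM in shCtrl libraries, higher with shCxxc5 in each pair but overlapping between the groups over all 6 libraries. Its log2 fold change in replicates 3 and 4 was 0.072 (SE 0.067, edgeR adjusted p = 0.513), and 1151 of its exon bases lie antisense to exons of Acadvl. Dvl3, the least abundant of the family, had 7.19, 4.15 and 5.80 CPM in shCxxc5 libraries, against 8.07, 4.77 and 4.64 CPM in shCtrl libraries, and its ratios had mixed signs.

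The destruction complex and its regulators made up 11 of the genes, and none passed the test between the hairpins in replicates 3 and 4. Of the 11, 5 had an unadjusted p under 0.05, beside 4526 of the 14193 genes tested. Csnk1a1, the casein kinase that primes beta-catenin for phosphorylation by Gsk3, had 664, 654 and 633 CPM in shCxxc5 libraries, against 587, 673 and 694 CPM in shCtrl libraries. Its ratio was above 0 in pair 2 and below 0 in pairs 3 and 4. Tnks, a tankyrase that marks Axin for degradation, had 77.3, 59.5 and 62.4 CPM in shCxxc5 libraries, against 99.8, 72.6 and 63.6 CPM in shCtrl libraries. It was lower with shCxxc5 in each pair, with log2 ratios of -0.37, -0.29 and -0.029, and its edgeR adjusted p in replicates 3 and 4 was 0.0523. Both sat near the threshold: Tnks passed it with the block, under RLE or upper-quartile scaling, with no filter or the CPM filter and without shCtrl library 4, and Csnk1a1 passed it with the block and under upper-quartile scaling. Axin2, a scaffold of the complex whose gene is a widely used readout of beta-catenin activity, had 44, 36 and 33 counts in shCxxc5 libraries, against 13, 47 and 25 counts in shCtrl libraries. These are few reads, library shCtrl 2 was the lowest, and the other 5 libraries held 25 to 47 counts. Its log2 fold change was -0.089 (SE 0.30, edgeR adjusted p = 0.883) in replicates 3 and 4, so a difference was not detectable at this depth, and 209 of its exon bases are shared with an antisense gene.

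The other members of this group had small fold changes in replicates 3 and 4. Axin1, the main scaffold, averaged 117 CPM with a log2 fold change of 0.12 there, and Apc, its partner, averaged 69.7 CPM with -0.057. Gsk3a and Gsk3b, the kinases that mark beta-catenin, averaged 87.2 and 39.1 CPM with log2 fold changes of 0.031 and 0.032. Csnk1d and Csnk1e averaged 203 and 102 CPM with 0.092 and -0.031. Btrc, the F-box protein that hands beta-catenin to the proteasome, averaged 24.1 CPM with 0.083, and the tankyrase gene Tnks2 averaged 274 CPM with -0.079. None of these 8 passed the adjusted threshold in that fit, and Axin1, Csnk1d and Tnks2 were among those with an unadjusted p under 0.05.

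Ctnnb1 had 840.0, 975 and 929 CPM in shCxxc5 libraries, against 775, 869 and 871 CPM in shCtrl libraries. It was higher with shCxxc5 within each number, by log2 ratios of 0.12, 0.17 and 0.094, while shCxxc5 library 2 lay below shCtrl libraries 3 and 4. In replicates 3 and 4 it rose by 0.14 on the log2 scale (SE 0.032, edgeR adjusted p = 0.00242), which put shCxxc5 library 3 at 112% and shCxxc5 library 4 at 107% of the shCtrl library of the same number. Over all 6 libraries Ctnnb1 averaged 915 ± 68.8 CPM in shCxxc5 libraries and 838 ± 54.7 CPM in shCtrl libraries (SD, n = 3 each), a log2 fold change of 0.13 (SE 0.10, edgeR adjusted p = 0.940). Without shCxxc5 library 3 the call in replicates 3 and 4 was lost, with a log2 fold change of 0.10 and an edgeR adjusted p of 0.126. Its exons share 759 bases with the antisense gene Ulk4, and RNA says nothing of the stability of the protein, by which the pathway is known to act.

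The TCF/LEF factors bind DNA and recruit beta-catenin. In replicates 3 and 4 Tcf7 supplied 98.6% and 98.7% of the summed per-kilobase level of Tcf7, Lef1 and Tcf7l2 in shCxxc5 libraries, against 98.3% and 97.9% in shCtrl libraries. Tcf7 had 4.24, 36.1 and 31.7 CPM in shCxxc5 libraries, against 4.23, 36.3 and 35.1 CPM in shCtrl libraries. The hairpin groups were close within each number, with log2 ratios of 0.0043, -0.0077 and -0.15, and the log2 fold change in replicates 3 and 4 was -0.063 (SE 0.075, edgeR adjusted p = 0.623). Lef1 was scarce, with 20, 13 and 4 counts in shCxxc5 libraries, against 39, 16 and 11 counts in shCtrl libraries, and lower in every shCxxc5 library than in the shCtrl libraries on the CPM scale. Its log2 fold change was -0.995 over all 6 libraries (SE 0.53, edgeR unadjusted p = 0.107, adjusted p = 0.940), and 1208 of its exon bases are antisense to another gene. Tcf7l2, named after its values were seen, had 0.834, 1.16 and 1.11 CPM in shCxxc5 libraries, against 1.44, 1.43 and 1.82 CPM in shCtrl libraries. Its groups did not overlap, and its log2 fold change of -0.59 over all 6 libraries did not pass (SE 0.28, edgeR unadjusted p = 0.0743, adjusted p = 0.940).

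**Figure D3:**
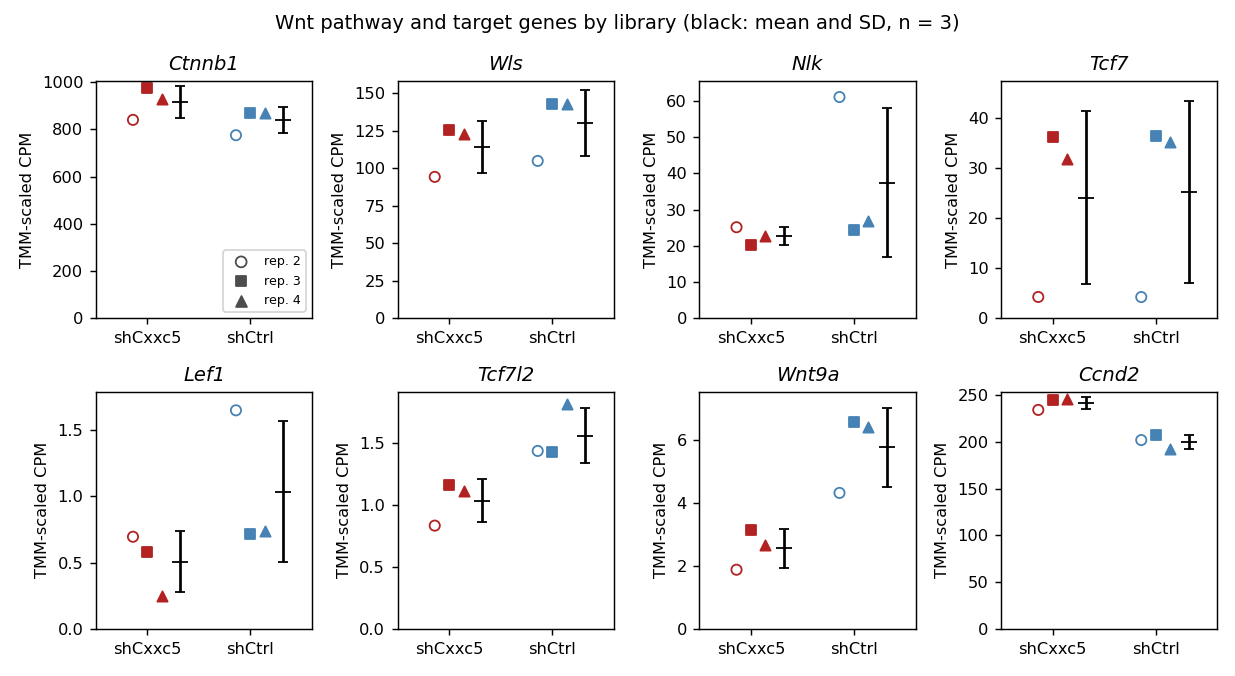
Each panel gives the TMM-scaled CPM of 1 gene (y axis, from 0) by hairpin group (x axis), with circles, squares and triangles for replicates 2, 3 and 4 and black bars for the mean and SD of 3 libraries. Ctnnb1 and Wls differ a little between the groups within each number, Tcf7 is at 4.24 CPM in shCxxc5 library 2 and 4.23 CPM in shCtrl library 2, and Wnt9a and Ccnd2 show groups that do not overlap.

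The nuclear co-activators connect beta-catenin to the transcription machinery. Pygo2, which reads histone tails and binds the Bcl9 proteins, had 69.2, 63.7 and 62.6 CPM in shCxxc5 libraries, against 51.3, 59.7 and 61.2 CPM in shCtrl libraries. All 3 shCxxc5 libraries were above the 3 shCtrl libraries, with the widest gap in pair 2, yet edgeR gave an adjusted p of 0.940 with all libraries and 0.429 with numbers 3 and 4. Bcl9l, one of the bridging proteins between beta-catenin and Pygo2, had 7.05, 8.56 and 5.62 CPM in shCxxc5 libraries, against 9.63, 5.98 and 6.73 CPM in shCtrl libraries, with overlapping groups. Its relative Bcl9 averaged 8.55 CPM, with log2 ratios of -0.89, 0.048 and -0.030. Pair 2 alone was well below 0 for Bcl9.

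The co-repressors and nuclear inhibitors held Nlk, which gave the largest log2 fold change of the 3 genes that passed in replicates 3 and 4. Nlk, the kinase that phosphorylates TCF/LEF factors and weakens their hold on DNA, had 25.1, 20.1 and 22.7 CPM in shCxxc5 libraries, against 61.1, 24.5 and 26.7 CPM in shCtrl libraries. Each shCxxc5 library was the lower of its pair, and shCtrl library 2 stood far above the other 5. In replicates 3 and 4 Nlk fell by 0.26 on the log2 scale (SE 0.089, edgeR adjusted p = 0.0420), and the call was lost under DESeq2 and without shCxxc5 library 3, shCtrl library 3 or shCtrl library 4 (for these 3, log2 fold changes of -0.16, -0.33 and -0.20, with edgeR adjusted p of 0.435, 0.0701 and 0.216). Over all 6 libraries the means were 22.6 ± 2.51 CPM in shCxxc5 libraries and 37.4 ± 20.5 CPM in shCtrl libraries (SD, n = 3 each), and the log2 fold change was -0.73 (SE 0.37, edgeR adjusted p = 0.940).

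Tle3, a Groucho-type co-repressor of TCF/LEF factors, had 122, 141 and 139.8 CPM in shCxxc5 libraries, against 159.8, 149 and 143 CPM in shCtrl libraries. The groups did not overlap, most of the difference lay in pair 2, and edgeR gave an adjusted p of 0.940 with all libraries and 0.387 with numbers 3 and 4. Ctbp1, a co-repressor bound by several DNA-binding factors, had 291, 272 and 267 CPM in shCxxc5 libraries, against 349, 267 and 267 CPM in shCtrl libraries, with means that differed by less than the SD of the shCtrl libraries. The related Ctbp2 averaged 53.5 CPM with a log2 fold change of 0.17 in replicates 3 and 4, and 314 of its exon bases lie on the same strand as exons of Fgfr2. Tle4 averaged 41.8 CPM with 0.050. Ctnnbip1, a small protein that blocks beta-catenin from TCF factors, averaged 16.7 CPM with 0.12, and Chd8, a chromatin remodeller reported to repress beta-catenin targets, averaged 105 CPM with 0.083. None of these 6 passed the adjusted threshold there, and 720 and 953 exon bases of Ctnnbip1 and Chd8 are shared with antisense genes.

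The replicate 2 libraries differed from the others by more than the hairpins did. With the hairpin group in the fit, 14 of the 38 genes (36.8%) passed the threshold between replicate 2 and replicates 3 and 4, beside 36.4% of the 14637 genes tested. Of these, 7 were higher in replicate 2 (18.4%, beside 17.7%) and 7 lower (18.4%, beside 18.7%), so the shares were near those of all genes. The count was 8 without shCxxc5 library 3, 10 without shCxxc5 library 4, 6 without shCtrl library 3 and 5 without shCtrl library 4. The share of all genes that passed moved with it, to 24.5%, 25.5%, 20.9% and 23.2% in the same runs. Tcf7 differed most: it was 8.0-fold lower in shCxxc5 library 2 than in shCxxc5 libraries 3 and 4, and 8.45-fold lower in shCtrl library 2 than in shCtrl libraries 3 and 4 (log2 fold change -3.04, SE 0.11, edgeR adjusted p = 2.06e-05). Its share of the TCF/LEF level was 90.3% in shCxxc5 library 2 and 82.1% in shCtrl library 2. With the length of the longest transcript in place of all exons, the share of Tcf7 ran from 67.1% to 97.2% over the 6 libraries. Ryk was 2.20-fold higher in shCxxc5 library 2 and 2.19-fold higher in shCtrl library 2 than in the other libraries of the same group (log2 fold change 1.13, SE 0.076, edgeR adjusted p = 0.000206).

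The other genes that passed this test were fewer than 2-fold apart. Nlk, Dvl3, Tnks, Ctbp2, Gsk3a and Ctbp1 were higher in replicate 2, by 0.78, 0.66, 0.45, 0.41, 0.28 and 0.25 on the log2 scale. Ctnnbip1, Fzd6, Wls, Tnks2, Dvl2 and Ctnnb1 were lower, with log2 fold changes of -0.72, -0.55, -0.42, -0.26, -0.23 and -0.17. The call of Dvl2 was lost under DESeq2, other scalings and other filters. Marker levels also differed between replicate 2 and the other libraries. For the mast cell and basophil sum and for the myeloid sum given above, the direction was opposite in the hairpin groups. All 9 tested megakaryocyte markers and all 7 tested erythroid markers passed the test higher in replicate 2, and the summed level of 8 erythroid markers was 213, 13.0 and 12.9 CPM in shCxxc5 libraries, against 68.4, 18.8 and 19.8 CPM in shCtrl libraries. Of 8 mast cell and basophil markers, 2 passed higher and 1 lower, with a sum of 1645, 495 and 459.8 CPM in shCxxc5 libraries, against 231, 512 and 528 CPM in shCtrl libraries. The summed level of 10 T cell markers, of which Cd3e and Cd8b1 were at 0 in all 6 libraries, was 19.9, 36.5 and 36.5 CPM in shCxxc5 libraries, against 22.0, 35.9 and 38.7 CPM in shCtrl libraries, nearly all of it Lck. The summed level of 10 B cell markers was 15.8, 30.7 and 32.2 CPM in shCxxc5 libraries, against 15.4, 34.5 and 33.7 CPM in shCtrl libraries, mostly Cd79b. For 8 markers of the LSK sort the sum was 995, 2495 and 2508 CPM in shCxxc5 libraries, against 1391, 2535 and 2454 CPM in shCtrl libraries. The part of these markers in the difference of Tcf7 was not tested.

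**Figure D4:**
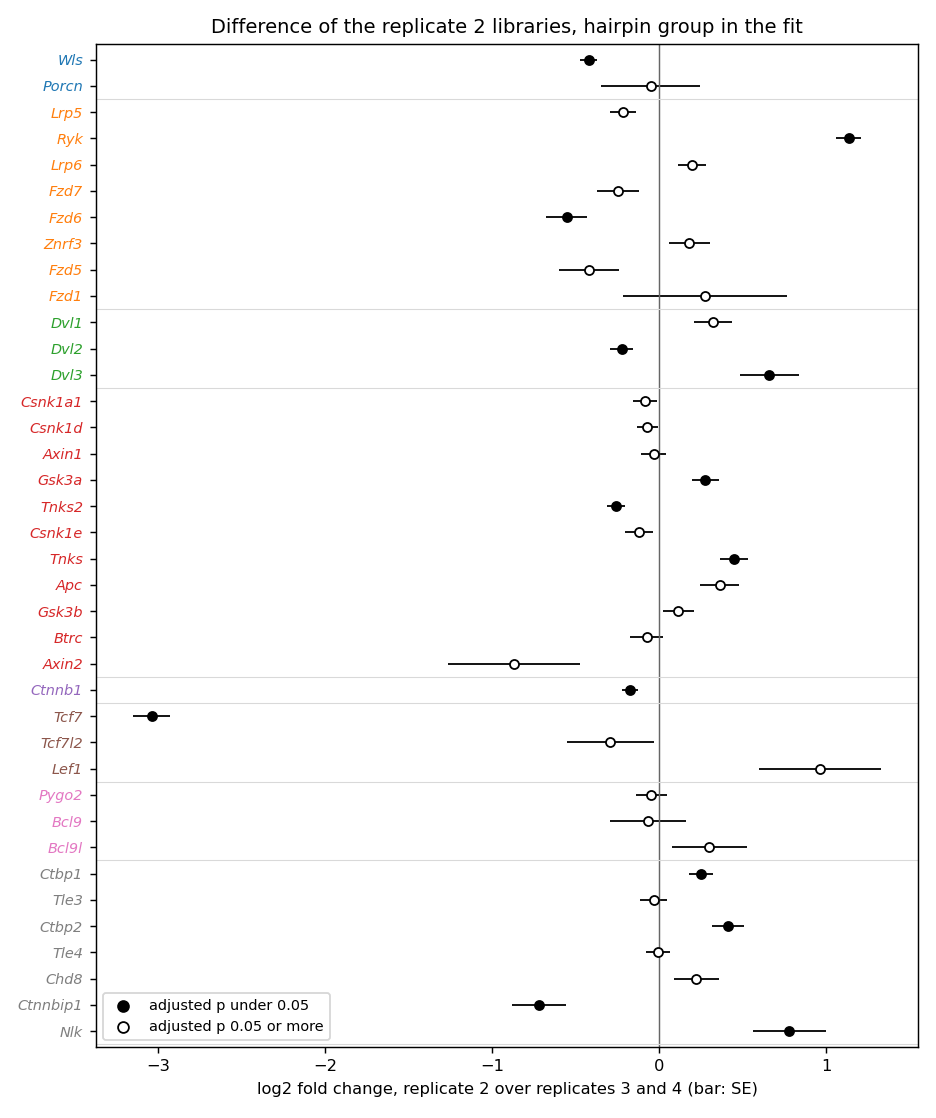
The x axis gives the log2 fold change of replicate 2 over replicates 3 and 4 with the hairpin group in the fit, bars are 1 SE, and the y axis lists the 38 genes by role. Filled points passed an adjusted p of 0.05; Tcf7 at -3.04 and Ryk at 1.13 lie farthest out among them.

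The hairpin difference in replicate 2 was set against that in replicates 3 and 4, with 1 library per hairpin in replicate 2. In this fit all residual degrees of freedom came from replicates 3 and 4, so the lone replicate 2 libraries were assumed to vary like them, which these data cannot check. Under that assumption the test passed for 19 of the 38 genes (50%), beside 35.8% of all genes tested. Of the 38, 16 passed lower (42.1%, beside 19.0%) and 3 higher (7.89%, beside 16.8%). DESeq2 called 6 of the 38, beside 16.3% of all genes tested, so with DESeq2 the share was near that of all genes. Nlk had the smallest adjusted p, with a hairpin effect lower in replicate 2 by -1.02 on the log2 scale (SE 0.13, edgeR adjusted p = 3.43e-08). For Ctnnb1 and Wls, which passed in replicates 3 and 4, the differences were -0.015 (SE 0.057, edgeR adjusted p = 0.873) and 0.051 (SE 0.075, edgeR adjusted p = 0.647). All 7 co-repressors and inhibitors had a log2 difference below 0, and 6 of them passed, beside 19.0% of all genes tested that passed lower. Tle4 (-0.094) did not pass. The lean was not particular to this role. Median differences were -0.38 here, -0.65 for co-activators, -0.29 for TCF/LEF factors, -0.26 for receptors, -0.23 for the destruction complex and -0.21 for Dishevelled. Those of Wnt secretion (-0.024) and beta-catenin (-0.015) were near the -0.026 of all genes tested. In the same pair the summed megakaryocyte markers were 1617 CPM in shCxxc5 library 2 and 6826 CPM in shCtrl library 2, and the summed myeloid markers were 5860.4 CPM in shCxxc5 library 2 and 848 CPM in shCtrl library 2. The summed mast cell and basophil markers were 1645 CPM in shCxxc5 library 2 and 231 CPM in shCtrl library 2. The part of these markers was not tested.

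Other genes of the pathway, 71 in all, were mostly silent. Of these, 13 averaged 10 CPM or more, 45 were under 1 CPM in all 6 libraries and 9 were at 0 throughout. Of the 19 Wnt ligand genes, 18 were under 1 CPM in every library and 5 of these were at 0. Wnt9a was the exception, with 1.88, 3.12 and 2.65 CPM in shCxxc5 libraries, against 4.31, 6.56 and 6.39 CPM in shCtrl libraries. Each shCxxc5 library was below each shCtrl library, and Wnt9a fell by 1.15 on the log2 scale in replicates 3 and 4 (SE 0.19, edgeR adjusted p = 4.20e-05). With all libraries its log2 fold change was -1.17 (SE 0.29, edgeR unadjusted p = 0.00679, adjusted p = 0.940), and DESeq2 with the replicate block gave an adjusted p of 0.0414.

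Of the 29 of these other genes tested in replicates 3 and 4, 2 passed the threshold higher and 2 lower, Wnt9a among them, beside 11% and 9% of all genes tested. The share of these genes that passed was thus below that of all genes. Fzd4, a further Frizzled receptor, had 4.17, 2.90 and 1.61 CPM in shCxxc5 libraries, against 5.87, 4.24 and 3.50 CPM in shCtrl libraries, and its log2 fold change in replicates 3 and 4 was -0.74 (SE 0.25, edgeR adjusted p = 0.0353). Amer1, a membrane partner of Apc and Axin, had 25.8, 31.7 and 34.6 CPM in shCxxc5 libraries, against 30.1, 29.7 and 24.9 CPM in shCtrl libraries. It rose by 0.27 on the log2 scale in replicates 3 and 4 (SE 0.084, edgeR adjusted p = 0.0240) but was lower with shCxxc5 in pair 2. Usp34, a deubiquitinase that acts on Axin, had 114, 127 and 129 CPM in shCxxc5 libraries, against 116, 111 and 110.3 CPM in shCtrl libraries, and it rose by 0.21 (SE 0.043, edgeR adjusted p = 0.000698) in replicates 3 and 4, again with the shCxxc5 library lower in pair 2. Usp34 shares 2137 exon bases with the antisense gene Ahsa2. The calls of Fzd4 and Amer1 were each lost under DESeq2 and without some single libraries (Fzd4 without shCxxc5 library 4, shCtrl library 3 or shCtrl library 4, and Amer1 without shCxxc5 library 4 or shCtrl library 4).

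Reported targets of beta-catenin, a list of 20 genes, were expressed in part: 7 were under 1 CPM in every library and 13 were tested. In replicates 3 and 4, 2 of the 13 passed the threshold higher and 1 lower, beside 11% and 9% of all genes tested, a share near that of all genes. Ccnd2, a cyclin of early cell division, had 234, 245 and 246 CPM in shCxxc5 libraries, against 202, 207 and 192 CPM in shCtrl libraries. All 3 shCxxc5 libraries were above the 3 shCtrl libraries, and Ccnd2 rose by 0.30 on the log2 scale in replicates 3 and 4 (SE 0.040, edgeR adjusted p = 2.09e-06). With all libraries the log2 fold change was 0.27 (SE 0.075, edgeR unadjusted p = 0.0107, adjusted p = 0.940), and 740 of its exon bases overlap antisense genes.

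Nedd9, an adaptor protein of cell adhesion, had 58.9, 33.6 and 33.7 CPM in shCxxc5 libraries, against 57.7, 46.2 and 43.0 CPM in shCtrl libraries. It fell by 0.41 on the log2 scale in replicates 3 and 4 (SE 0.069, edgeR adjusted p = 7.86e-05), and in pair 2 the groups were close. Ephb2, a receptor tyrosine kinase, had 8.96, 16.4 and 16.5 CPM in shCxxc5 libraries, against 11.9, 12.8 and 14.1 CPM in shCtrl libraries, a log2 fold change of 0.31 in replicates 3 and 4 (SE 0.10, edgeR adjusted p = 0.0368) with the opposite order in pair 2, and its call was lost under DESeq2, upper-quartile scaling and no filter, and without shCxxc5 library 3, shCxxc5 library 4 or shCtrl library 3. The other 10 tested targets, Myc, Ccnd1, Cd44, Id2 and Sox4 among them, did not pass in replicates 3 and 4. Between replicate 2 and replicates 3 and 4, 4 of the 13 targets passed higher and 2 lower, beside 17.7% and 18.7% of all genes tested. Gadd45g, Rnf43, Nedd9 and Cd44 were higher in replicate 2, with log2 fold changes of 2.55, 1.89, 0.59 and 0.43. Sox4 and Myc were lower there, with 162, 419.8 and 411 CPM in shCxxc5 libraries, against 130.4, 392 and 405 CPM in shCtrl libraries for Sox4 and 229, 337 and 332 CPM in shCxxc5 libraries, against 234, 322 and 321 CPM in shCtrl libraries for Myc.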

How the data were processed

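Messenger RNA was sequenced in 6 libraries of sorted LSK cells (3 shCxxc5 and 3 shCtrl). The authors deposited raw counts per gene, whole numbers under 49671 Ensembl identifiers. A stranded mRNA kit was used, per the labels' protocols. Per the submitters' processing notes, STAR 2.5.2b, featureCounts 1.5.1 and DESeq2 were used on GRCm38. Which annotation release and strand setting the counting used is not given in the sources used here, and where exons of 2 genes lie antisense to each other their reads cannot be separated. Symbols, exon lengths and overlaps came from GENCODE M21 (GRCm38), in which 49412 identifiers were found; the other 259 held 0.0557% of counts. Library totals of 15002414 to 27754019 counts limit what can be seen for genes such as Lef1 and Axin2.

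Counts were tested with edgeR 4.0.16 in R 4.3.3 (TMM scaling, filterByExpr, robust quasi-likelihood test, Benjamini-Hochberg over all genes tested, threshold 0.05). There were 4 fits: hairpin over all 6 libraries; hairpin in replicates 3 and 4; replicate 2 over replicates 3 and 4 with the hairpin group; and their interaction. The SE was taken from the log2 fold change and the F statistic (its absolute value over the root of F). Log2 ratios within a number, and percentages of the shCtrl value, are of TMM-scaled CPM with a prior count of 2 added. The prior count pulls the ratios of genes with few reads toward 0. CPM per kilobase uses the union of a gene's exons.

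The members and lists, the split by replicate 2 and the rule for named genes were chosen with earlier results of these data known. That rule gave values in every library for members past the threshold in any fit with ratios of 1 sign, for those past it in replicates 3 and 4, for the highest and lowest member per kilobase of each role, and for Axin2, Ctnnb1, Tcf7, Lef1 and the Dvl genes; of the other lists, genes past the threshold in replicates 3 and 4. Tcf7l2, Sox4, Myc, Gadd45g, Rnf43 and Cd44 were added after their values were seen.

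No label explains the replicate numbers. Library deviations around their group mean correlated at 0.670, 0.554 and 0.489 between libraries sharing number 2, 3 and 4. Across the groups, library 3 with 4 gave 0.475 and 0.489, nearly as high. With library 2 far from the group mean, libraries 3 and 4 must deviate together, whatever the pairing. The check thus shows that library 2 stood apart alike in both groups, and it cannot tell whether 3 pairs with 3 or with 4. Values with the replicate block are given where they move a count by more than 1.5 times.

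Alternatives were DESeq2 1.42.0, RLE and upper-quartile scaling, no filter, a CPM filter, no robust fitting, the replicate block and leaving out each library. On simulated counts, with 2-fold and 4-fold changes, the fit of all 6 libraries recovered 42% and 77%. With the block these were 100% and 100%, and the fit of replicates 3 and 4 recovered 89% and 99%. The simulated libraries varied about as little as the real replicates 3 and 4, with the same hairpin effect in every replicate number. The real libraries need not meet these settings, and edgeR with the block called 0 genes over all 6. The recoveries therefore do not give the power of the real fits.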

Additional observations from a re-analysis of the deposited data

Results flagged for a closer look

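For 19 of the 38 genes the test of the difference in hairpin effect between replicate 2 and replicates 3 and 4 passed (edgeR adjusted p under 0.05, log2 difference as replicate 2 minus replicates 3 and 4), beside 35.8% of all genes tested. Replicate 2 has 1 library per hairpin, so the test takes its spread from replicates 3 and 4 alone. DESeq2 called 6 of the 38, beside 16.3% of all genes tested, a share near that of all genes. The difference passed below 0 for 16 of the 38 genes (42.1%), beside 19.0% of all genes tested. It was -1.02 for Nlk, -0.91 for Bcl9, -0.65 for Bcl9l, -0.59 for Ctnnbip1 and -0.56 for Chd8. It was -0.43 for Dvl1, -0.42 for Apc, -0.38 for Ctbp2 and -0.33 for Tle3. Smaller differences were found for Csnk1e (-0.29), Lrp5 (-0.29), Ctbp1 (-0.28), Axin1 (-0.27), Lrp6 (-0.27), Gsk3a (-0.23) and Csnk1d (-0.20). The difference was above 0 for Csnk1a1 (0.26), Pygo2 (0.37) and Axin2 (1.56). Axin2 rests on 44 counts in shCxxc5 library 2 and 13 counts in shCtrl library 2.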

How the results depend on the processing

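With all 6 libraries, none of the 38 genes passed under any alternative run, while the count over all genes was 0 except for 19 under DESeq2 and 147 under DESeq2 with the replicate block; edgeR with the replicate block gave 0. In replicates 3 and 4 the count over all genes was 1353 under DESeq2 and 1507 to 2043 with 1 library left out. The members past the threshold there numbered 2 under DESeq2 (Ctnnb1 and Wls), 5 under RLE scaling, upper-quartile scaling, no filter and the CPM filter, 8 with the replicate block and 1 to 4 with 1 library left out. Upper-quartile scaling turned the split over all genes in replicates 3 and 4 to 1232 higher and 1431 lower, beside 1555 higher and 1278 lower. For replicate 2 over replicates 3 and 4, leaving out 1 library gave 3183 to 8816 genes and 5 to 27 members. For the difference of the hairpin effect, DESeq2 gave 2390 genes and 6 members, the replicate block 5584 genes and 21 members, and leaving out 1 library of numbers 3 and 4 gave 4240 to 5116 genes and 15 to 18 members; this fit could not be made without either replicate 2 library.

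Over all 6 libraries, the sign turned for Ryk without a filter (0.0053), and with 1 library left out the log2 fold changes ran from -0.51 to 0.46 for Ryk, -0.20 to 0.027 for Fzd7 and -0.027 to 0.35 for Ephb2, none of them called; the cause was not tested. Beside the results given in the text, the replicate block changed no hairpin call over all 6 libraries in edgeR. Depth limits Lef1, Axin2, Fzd1, Tcf7l2 and Porcn, which had at most 47 counts in any library. With 3 libraries a group and replicate 2 apart, the fit of all 6 libraries had a biological coefficient of variation of 0.312, against 0.0294 in replicates 3 and 4.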
